A study of Mus musculus with 12 samples.

Results

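Reprogrammed lung epithelium was compared with adult mammary epithelium, to see how near its microRNA (miRNA) profile lay to that of adult mammary cells. The 2 groups were taken by the titles of their samples and hold 6 of the 12 arrays of the series, 3 per group. Adult mammary arrays are replicates 1, 2 and 4, and reprogrammed lung arrays are replicates 1, 2 and 3. Adult lung and reprogrammed mammary epithelium, with 3 arrays each, served as reference points and shared the estimate of the spread. All samples are mouse epithelial cells. Adult donor cells came from female mice aged 10 weeks. Mammary tissue was minced, digested with trypsin and collagenase A, and epithelium was purified by differential centrifugation, with no cell sort named. The series title places reprogramming in vivo and makes it depend on stroma. The labels give neither the tissue that the reprogrammed lung cells came from, nor the strain, age or harvest of the reprogrammed cells. Whether replicates were taken from separate animals is not given, so the p-values below rest on a spread among arrays that may be purely technical.

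miRNAs are short RNAs that guide Argonaute proteins to messenger RNAs with matching sites and lower the output of those messages. A cell's set of miRNAs differs between tissues and developmental stages, and a change of fate is usually accompanied by a change in that set. On the array each miRNA is captured by a short DNA probe, and the brightness of its spots is read as its level. The probes carry serial numbers of the array maker, and 0 of them could be paired with a miRNA name in the tables used here. The labelled tissue could therefore not be checked against marker miRNAs, no sequence could be shown, and probes are described by their values and serial numbers. In such bulk samples fewer cells of a type and less RNA per cell cannot be told apart.

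Of 2579 probes, 947 were well above background on at least 3 of the 12 arrays and were tested. Signal is given as log2 of the scaled intensity, with a floor at 3.41 below which levels have no order. Before scaling, array brightness (the 75th percentile of the 631 probes seen on every array) averaged 1525 ± 224 for the reprogrammed lung arrays against 1427 ± 93.3 for adult mammary arrays (SD, n = 3, two-sided exact permutation p = 0.5). The number of probes detected was 888 ± 16.3 against 811 ± 21.4 (SD, n = 3, two-sided exact permutation p = 0.1, the smallest that 3 arrays against 3 allow). Each of the 3 slides carried 1 array of each of the 2 groups compared, so slide and group can be told apart here. Adult lung replicates 1 and 2 were on slide 1 and replicate 3 on slide 2, so distances from adult lung are not balanced over slides. The number of arrays limits the precision of every value.

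Reprogrammed lung cells lay nearer to adult mammary than to adult lung cells. Distance was taken as the median absolute log2 difference over the 947 probes from the mean of the reprogrammed lung arrays. For adult mammary replicates 1, 2 and 4 it was 0.418, 0.349 and 0.334. For adult lung replicates 1, 2 and 3 it was 0.530, 0.661 and 0.632, so that every adult lung array was farther away than every adult mammary array. The mean distances were 0.367 ± 0.0445 for adult mammary and 0.608 ± 0.0685 for adult lung (SD, n = 3, two-sided exact permutation p = 0.1, the smallest possible). Reprogrammed mammary arrays stood at 0.385, 0.275 and 0.378 for replicates 1, 2 and 4, which overlaps the adult mammary arrays (two-sided exact permutation p = 0.7, n = 3). The mean distance of reprogrammed mammary minus that of adult mammary arrays depends on the processing. It was -0.0211 in the main scaling, 0.331 with no scaling, and 0.330 after normexp background correction with the percentile scaling kept. The normexp setting adds an offset of 50 to every spot before scaling, so the offset is scaled along with each array. Its part in the 0.330 was not tested. Before scaling, reprogrammed mammary arrays were the dimmest of the series (805 to 867 against 1267 to 1680 in reprogrammed lung). The excess of adult lung over adult mammary was 0.241 in the main scaling, 0.370 with no scaling, 0.155 after normexp and 0.119 in the authors' deposited values. Adult lung arrays were the brightest before scaling (2278 to 2963), while adult mammary arrays read 1335 to 1522. After scaling, the median difference of reprogrammed lung over all probes was 0.14 from adult lung and 0.00 from adult mammary cells. The part of array brightness in these distances was not tested. The reprogrammed lung arrays themselves stood at 0.320, 0.162 and 0.226 from their own mean, to which each contributes.

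**Figure D1:**
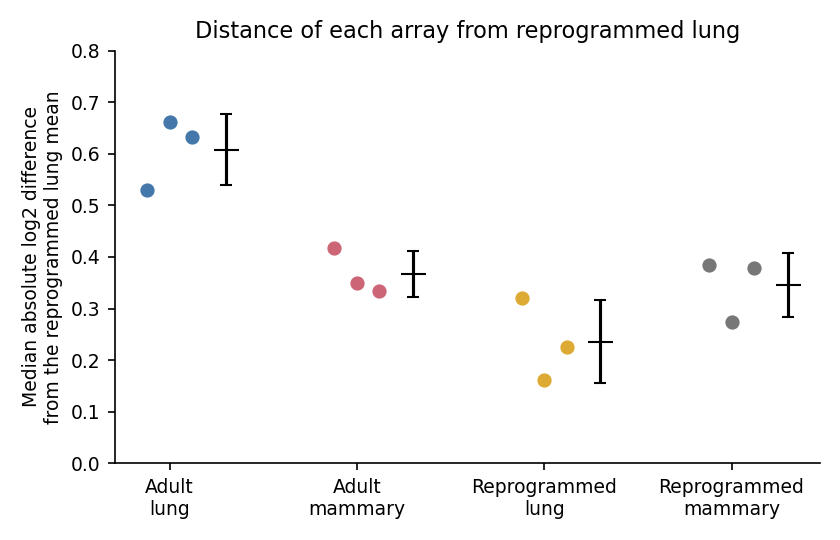
Median absolute log2 difference of each array (points) from the mean of the reprogrammed lung arrays over 947 probes, by group; black marks are the group mean and SD (n = 3). Adult mammary arrays lie between 0.334 and 0.418, below all adult lung arrays at 0.530 to 0.661, and overlap the reprogrammed mammary arrays.

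All 3 reprogrammed lung arrays showed this order on their own against the means of the adult groups. From the adult mammary mean, replicates 1, 2 and 3 differed by a median of 0.438, 0.309 and 0.352, and from the adult lung mean by 0.653, 0.595 and 0.673. Their correlation with the adult mammary mean over the 631 probes detected everywhere was 0.943, 0.975 and 0.960, against 0.924, 0.932 and 0.909 with the adult lung mean. Probes are not independent of one another, so these values describe the arrays only. Replicate 1 was the least typical of its group: 202 of the 947 probes were more than 2-fold from the mean of the other replicates there, against 40 for replicate 2 and 159 for replicate 3. The array closest to reprogrammed lung replicate 1 was adult mammary replicate 4, at a median difference of 0.340 and on another slide. Against single arrays the order did not always hold: adult lung replicate 1 (0.644) was closer to it than adult mammary replicate 1 (0.659). Replicates 2 and 3 were closest to each other, at 0.253. Outside its own group, replicate 2 was closest to reprogrammed mammary replicate 2 (0.311) and replicate 3 to reprogrammed mammary replicate 4 (0.280), each on its own slide. What the shared slide adds to these distances was not tested.

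At most probes that set the adult tissues apart, reprogrammed lung cells were nearer to adult mammary than to adult lung cells. To keep the adult mammary arrays that chose the probes apart from the one used to read them, the probes were chosen with 1 adult mammary array left out and then read on that array. With replicate 1 left out, 108 probes were higher in adult mammary than in adult lung cells, and their median signal was 7.19 on the left-out array, 7.26 in reprogrammed lung and 5.61 in adult lung. The 119 probes lower in adult mammary cells had medians of 7.57, 6.87 and 8.19 in the same order. With replicate 2 left out the 81 higher probes gave 7.97, 7.31 and 5.56, and the 63 lower ones 5.09, 5.07 and 7.49. With replicate 4 left out the 125 higher probes gave 7.42, 7.31 and 5.56, and the 71 lower ones 5.40, 5.44 and 7.86. Across these 6 lists, reprogrammed lung was nearer to the left-out array than to the adult lung mean at 88.7% to 96.8% of the probes, against 55.3% to 64.4% over all probes tested. The lists were chosen for a gap between the adult tissues and the full set was not, so these shares are not like for like. Nearer did not mean equal: the median difference of reprogrammed lung from the left-out array ran from -0.33 to 0.28 over the 6 lists. All adult lung arrays took part in choosing the probes, which moves the adult lung end outward.

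A reading whose group means share no array with this comparison came from reprogrammed mammary against adult lung cells. The estimate of the spread, the scaling and the filter still used all 12 arrays. There 236 probes were higher in reprogrammed mammary cells and 178 lower (limma, adjusted p under 0.05), 24.9% and 18.8% of those tested. The median signal of the 236 higher probes was 7.80 in reprogrammed lung and 7.71 in adult mammary cells, with 6.29 in adult lung. Their median difference between reprogrammed lung and adult mammary cells was 0.05, against 0.00 over all probes. Single probes of this list differed in both directions, 125 above and 111 below 0, with a median absolute difference of 0.374 against 0.283 over all probes. Of the 236, 19 (8.05%) were higher in reprogrammed lung than in adult mammary cells past the threshold and 1 (0.424%) was lower, and 47 differed by more than 2-fold. Over all 947 probes, 3.48% were higher and 0.845% lower past the threshold, and 110 (11.6%) differed by more than 2-fold. The 178 lower probes had medians of 6.72 in reprogrammed lung, 6.83 in adult mammary and 7.85 in adult lung cells, and a median difference of -0.04. Neither sign is stable: over the other settings the first median ran from -0.08 to 0.30 and the second from -0.19 to 0.02. Past the threshold, 0 of the 178 were higher and 2 (1.12%) lower in reprogrammed lung than in adult mammary cells. Among the 178, 2 differed by more than 2-fold.

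Reprogrammed lung and adult mammary cells were then compared probe by probe. Of 947 probes, 41 (4.33%) passed the threshold, 33 (3.48%) higher and 8 (0.845%) lower in reprogrammed lung cells (limma, adjusted p under 0.05). At an unadjusted p under 0.05 there were 204 (21.5%). The change exceeded 2-fold for 22 higher probes (2.32% of those tested) and 6 lower ones (0.634%), while 11.6% differed by that much whether past the threshold or not. The count is not stable against single arrays: it was 0 without adult mammary replicate 1 (166 at an unadjusted p under 0.05 in limma), 0 without adult mammary replicate 2 (168) and 0 without reprogrammed lung replicate 2 (177). It rose to 82 when reprogrammed lung replicate 1 was left out, and ran from 0 to 96 over all settings tried. In the same fit 332 probes (35.1%) separated reprogrammed lung from adult lung cells, and 2 (0.211%) separated reprogrammed mammary from reprogrammed lung cells, comparisons that share the reprogrammed lung arrays with this one. The arrays of the groups were fully separated at 218 probes (23.0%), among them all 41. The median difference over all probes was 0.00 and the median absolute one 0.283. The authors' deposited values gave 43 of 754 probes in the same fit, of which 29 were also among the 41, all 29 in the same direction. The balance of higher and lower probes was 29 to 14 there, 31 to 25 with total gene signal and 8 to 6 after normexp, against 33 to 8 in the main scaling. The percentile over all probes moved the median of all probes by -0.13.

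**Figure D2:**
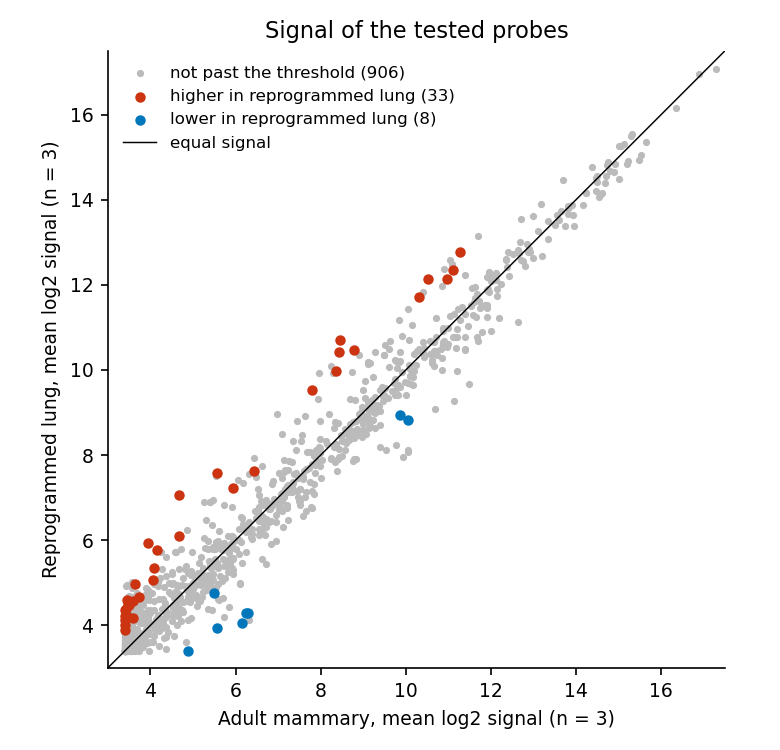
Mean log2 signal of the 947 tested probes in adult mammary (x axis) and reprogrammed lung cells (y axis), n = 3 arrays each; the line marks equal signal. The 33 higher probes (red) and 8 lower probes (blue) past the threshold lie among 906 others (grey), many of the red ones near the floor of 3.41.

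The largest increase past the threshold was at UCSF034_002175. Its log2 signal was 5.18, 4.51 and 4.31 on adult mammary replicates 1, 2 and 4, and 6.14, 7.99 and 7.05 on reprogrammed lung replicates 1, 2 and 3. Every reprogrammed lung array was above every adult mammary array, with replicate 2 the highest. In log2 units it rose by 2.40 ± 0.45 (SE), which is 5.27-fold (limma, adjusted p = 0.0261). On slides 1, 2 and 3 it was 1.87, 3.69 and 1.64. Reprogrammed mammary arrays read 4.96, 5.99 and 5.91, the first of them within the adult mammary range, and the probe was at the floor on all 3 adult lung arrays. The change fell to 1.17 after normexp background correction (adjusted p = 0.0710 in limma), and with the replicate block it was 2.39 (adjusted p = 0.0623 in limma).

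UCSF034_001735 was bright in every group. Adult mammary replicates 1, 2 and 4 read 8.0, 8.49 and 8.89, and reprogrammed lung replicates 1, 2 and 3 read 10.73, 10.72 and 10.65. The reprogrammed lung arrays were nearly the same, and all were above adult mammary. It rose by 2.24 ± 0.43 (SE), or 4.73-fold (limma, adjusted p = 0.0261), with 2.66, 1.83 and 2.24 on slides 1, 2 and 3. Adult lung arrays stood between the groups at 10.16, 9.31 and 9.35. Reprogrammed mammary arrays reached 9.76, 10.29 and 11.52.

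Among the decreases, UCSF034_000592 was the largest past the threshold. Adult mammary arrays read 6.16, 5.86 and 6.42, and reprogrammed lung replicates 1, 2 and 3 read 3.41, 3.77 and 5.00. Replicate 1 was at the floor, and replicate 3 stayed closest to the adult level. The difference was -2.09 ± 0.35 (SE), 4.25-fold (limma, adjusted p = 0.0212), with -1.15, -2.65 and -2.45 on slides 1, 2 and 3. Since 1 array was at the floor, the size depends on it, and the difference was -2.37 with no common floor. It was -0.74 after normexp, which adds an offset of 50 to every spot, and -1.10 in the authors' deposited values. Adult lung stood at 5.55 ± 0.05 and reprogrammed mammary cells at 4.87 ± 0.24 (SD, n = 3).

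UCSF034_000525 followed the same course. Its log2 signal was 6.26, 5.98 and 6.62 on the adult mammary arrays and 3.41, 4.15 and 5.28 on reprogrammed lung replicates 1, 2 and 3, again with replicate 1 at the floor. It fell by 2.00 on the log2 scale (SE 0.39, adjusted p = 0.0261 in limma), and the differences on slides 1, 2 and 3 were -0.98, -2.46 and -2.57. With no common floor the difference was -2.33, after normexp -0.75, and in the authors' deposited values -1.09. The probes with the next 2 serial numbers fell as well. The 4 lowest probes rose and fell together over the 12 arrays, with pairwise correlations from 0.916 to 0.998, and may not be separate measurements, since the probe sequences are not known. Their choice by the same group difference also favours correlation. All 4 of the probes named here missed the threshold when adult mammary replicate 1 or 2, or reprogrammed lung replicate 2, was left out (limma, adjusted p from 0.0548 to 0.112). Leaving out adult mammary replicate 4 also ended the calls of UCSF034_002175 (adjusted p = 0.0590 in limma) and UCSF034_000525 (0.0633). With no filter on dim probes all 4 missed it (limma, adjusted p from 0.104 to 0.118). In a fit of the 6 arrays alone UCSF034_002175, UCSF034_000592 and UCSF034_000525 did so (limma, adjusted p = 0.105, 0.104 and 0.131), and with slide as a block in that fit all 4 did (0.219 to 0.259).

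**Figure D3:**
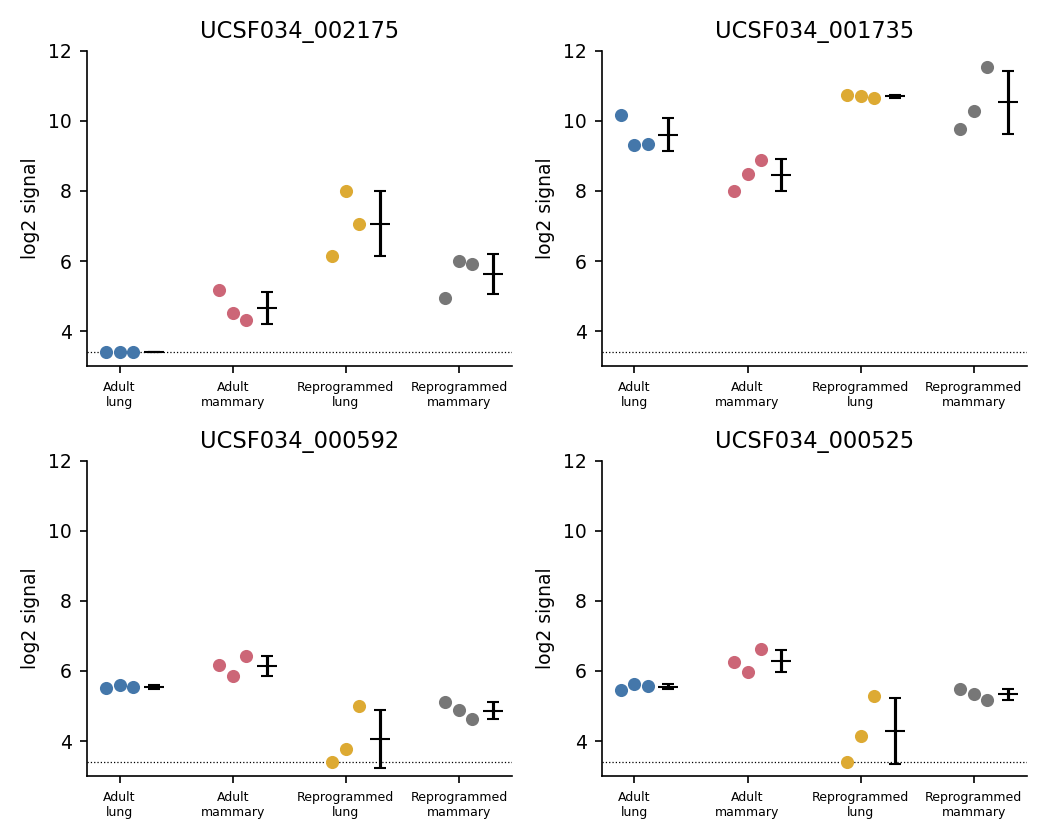
Log2 signal on each array (points) of the 2 highest and 2 lowest probes past the threshold, by group; black marks are mean and SD (n = 3) and the dotted line is the floor at 3.41. The reprogrammed lung arrays lie above all adult mammary arrays in the upper panels and below them in the lower panels, with replicate 1 at the floor in both lower panels.

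The 33 higher probes fell into a bright and a dim set, divided at a mean log2 signal of 7 over all arrays after their values were seen. In the bright set of 11 probes, all changed more than 2-fold, by a median of 1.61 (1.17 to 2.24, log2). The median signal of these 11 probes was 8.38, 8.77 and 9.17 on adult mammary replicates 1, 2 and 4. It was 10.73, 10.72 and 10.65 on reprogrammed lung replicates 1, 2 and 3, a separation by which these probes were chosen. On the adult lung arrays it was 10.16, 9.31 and 9.35, and on the reprogrammed mammary arrays 9.95, 10.29 and 11.52. On all adult lung and reprogrammed lung arrays, and on reprogrammed mammary replicates 2 and 4, this median is the value of UCSF034_001735 itself. The mean of adult lung cells lay between those of adult mammary and reprogrammed lung cells at all 11 probes, and reprogrammed mammary cells exceeded reprogrammed lung cells at 7 of them. Pairwise correlations of the 11 probes over the 12 arrays had a median of 0.949 and ran from 0.752 to 0.992. The choice of probes by the same group difference favours such correlations, and no value over all tested probes stands beside them. Their direction was the same in all 21 other settings. Between 7 and 11 of them passed the threshold under the other scalings, normexp, total gene signal and the authors' values. Without reprogrammed lung replicate 3 there were 5, and with slide as a fixed block 6. Without adult mammary replicate 1 or 2, or without reprogrammed lung replicate 2, 0 passed. The same held with no filter on dim probes and for the 6 arrays alone with slide as a block.

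The dim set held 22 probes, 11 of them changed more than 2-fold. Their median signal was 3.45, 3.48 and 3.69 on the adult mammary arrays and 4.68, 4.75 and 4.70 on the reprogrammed lung arrays. The adult mammary values lie close to the floor, so these changes are only partly measured. Adult lung arrays were at or near the floor, with medians of 3.47, 3.41 and 3.41, and the mean of 6 of the 22 probes was at the floor there. Reprogrammed mammary arrays had intermediate medians of 3.89, 4.02 and 4.29. In this set the median change was 0.99 (log2). It shrank to 0.19 after normexp, where 1 of the 22 probes passed the threshold, and to 0.42 in the authors' values, where 12 did. The normexp setting adds an offset of 50 to every spot, above the level of most of these probes. With no common floor the median change was 1.41, and 18 of the 22 passed.

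The 8 lower probes had a median signal of 6.19, 5.91 and 6.49 on adult mammary replicates 1, 2 and 4. On reprogrammed lung replicates 1, 2 and 3 the medians were 3.41, 4.14 and 5.14, the widest spread of the 3 sets. Adult lung arrays stood at 5.50, 5.61 and 5.55, and reprogrammed mammary arrays at 5.32, 5.06 and 5.13. At 7 of the 8 probes the reprogrammed lung mean was below both adult means, and all 33 higher probes had a reprogrammed lung mean above both adult means. The choice of probes by a high or low reprogrammed lung signal favours that outcome.

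**Figure D4:**
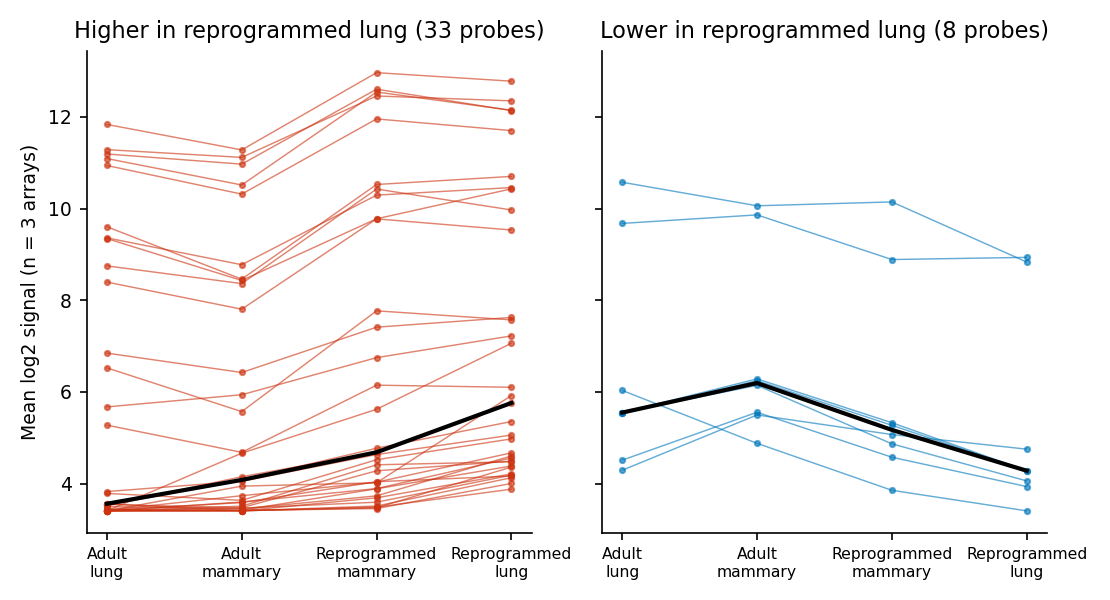
Mean log2 signal (n = 3 arrays) in each group of the 33 probes higher and the 8 probes lower in reprogrammed lung than in adult mammary cells; each thin line is 1 probe and the black line the median. The median of the higher probes runs from 3.56 in adult lung through 4.08 in adult mammary and 4.68 in reprogrammed mammary to 5.76 in reprogrammed lung cells, and that of the lower probes is 5.55, 6.19, 5.17 and 4.28.

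Probes detected in 1 group only were mostly those of reprogrammed lung cells. On all 3 reprogrammed lung arrays and no adult mammary array, 35 of the 2579 probes were well above background. The reverse held for 2 probes. All 37 were dim, with group means of at most 4.93 in the brighter group. Set against the lowest detected signals of the dimmer group, the signal of the 35 probes was at least 1.18-fold higher at the median and at least 2.85-fold higher at the most. Of the 35, 5 were among the 41 probes past the threshold (4.33% of all tested), 31 were on no reprogrammed mammary array and 10 on all 3 adult lung arrays. Of all 2579 probes, reprogrammed mammary arrays detected 700 to 773, adult lung arrays 851 to 1006 and reprogrammed lung arrays 875 to 906. The part of these totals in the counts of 31 and 10 was not tested. Reprogrammed lung arrays also detected more probes in all than adult mammary arrays, as given above, and the part of this in the counts of 35 and 2 was not tested. Without adult mammary replicate 4 the counts were 55 and 6.

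The changes depended on where a probe stands in the numbering of the array design. Of the probes numbered 1 to 1290, 661 were tested, and 1 was higher and 8 lower in reprogrammed lung cells. Of those numbered 1291 to 2579, 286 were tested, and 32 (11.2%) were higher and 0 lower. Over all tested probes, whether past the threshold or not, the median difference was 0.27 for the upper numbers, against -0.07 for the lower. On slides 1, 2 and 3 the upper numbers had medians of 0.34, 0.22 and 0.35 and the lower numbers -0.18, 0.03 and -0.03, so the displacement was seen on each slide. The upper numbers were dimmer, with a median signal of 4.59 in adult mammary cells against 6.97. In 4 classes of mean signal, the median difference of the upper numbers was 0.20, 0.34, 0.31 and 0.67 from the dimmest to the brightest class, against 0.00, -0.14, -0.11 and -0.08 for the lower numbers. The part of signal level in the displacement was not tested. All 157 tested probes with 1 spot per array are among the lower numbers. Among probes with at least 6 spots the medians were 0.27 and -0.04.

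On arrays outside this comparison, reprogrammed mammary against adult lung cells showed a median of 0.40 for the upper and 0.02 for the lower numbers. Adult mammary against adult lung cells gave -0.02 and 0.00, and reprogrammed mammary against reprogrammed lung cells 0.01 and -0.02, though each of these shares 1 group with the comparison here. The difference between upper and lower numbers was 0.34 in the main scaling, 0.22 in the authors' values, 0.11 after normexp, 0.61 with no common floor, 0 with no filter on dim probes and from 0.25 to 0.40 with any single array of the 6 left out. Which miRNAs the upper numbers stand for was not analysed here.

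**Figure D5:**
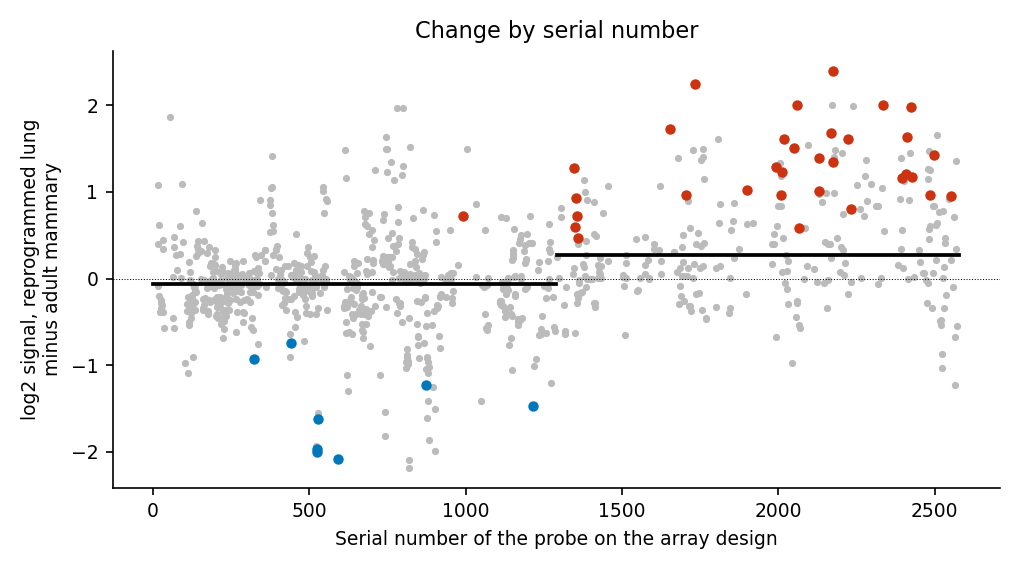
Log2 signal of reprogrammed lung minus adult mammary cells for the 947 tested probes, by serial number on the array design; red and blue points passed the threshold, and black bars are the medians for numbers 1 to 1290 (-0.07) and 1291 to 2579 (0.27). All but 1 of the 33 higher probes have upper numbers, and all 8 lower probes have lower ones.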

How the data were processed

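Cy3-labelled RNA of each sample was hybridised to 1 single-colour Agilent array. Spot values in the deposited scanner output are intensity, linear and background-subtracted, from Feature Extraction version 10.5.1.1 per the file headers (10.1 per the submitters' processing notes). The file of reprogrammed lung replicate 3 lacks headers and is rounded to 3 significant digits. The authors' deposited log2 values (2270 probes, scaling and centring not given in the sources used here) were an alternative. Their column medians ran from 4.97 to 5.00, and each column correlated best with the median spot signal of its own array, in the same direction. There were 0 columns of other samples.

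Of 15075 spots that were not controls, flagged outliers (164 to 345 per array) were left out, and 0 were saturated. Signals were scaled by the 75th percentile over the 631 probes detected on all arrays, floored at 10.6 (3.41 in log2; per array, 5% of the spots well above background lie below the floor value, whose median was used) and averaged per probe as log2 values. A probe was detected where over a share of 0.5 of its spots were well above background. limma 3.58.1 in R 4.3.3 fitted 4 group means to all 12 arrays (8 residual and 1.54 prior degrees of freedom), with Benjamini-Hochberg adjustment over 947 probes. On simulated data for this comparison, with 200 of 947 probes changed, 61.3% of changes of 1 and 89.5% of changes of 2 (log2) were recovered, with 5.35% false calls. In the data 41 of 947 probes passed, and 82 of the 110 that differed by over 2-fold fell short. Recovery with fewer changed probes was not simulated, so these shares may be too high for the data. The probes named are the 2 highest and 2 lowest past the threshold whose groups did not overlap. Members, lists and tests were chosen with earlier results of these data known. The miRNA lists prepared were not used, as 0 probes could be paired with names. Alternatives were other scalings, background correction, total gene signal, filters, floor, blocks, array weights and leaving out arrays. The normexp setting (offset 50) used median spot signals, since the files hold no mean signals, and was chosen after seeing the data, as were the division of the higher probes by signal and that by serial number. Other software was Python 3.11.15, pandas 2.3.3, matplotlib 3.10.9 and the R package data.table, version 1.17.8.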

Additional observations from a re-analysis of the deposited data

How the results depend on the processing

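The count of 41 probes depended on the processing: it was 19 after quantile normalization, 14 after normexp background correction, 69 with no scaling, 85 with no common floor and 96 with array weights. It was 2 with no filter on dim probes and 18 among probes detected on all 6 arrays. With slide as a fixed block it was 24, with the 6 arrays alone 25, and with both 0 (lowest adjusted p = 0.219 in limma). Leaving out single arrays gave 0 to 82. The adjusted p-values of the 41 probes lie close to the threshold, from 0.0186 to 0.0434 (limma). All 41 kept their direction in every setting in which they were tested. The median difference of all probes moved to -0.13 with the percentile over all probes, 0.0527 with no scaling and -0.0927 with total gene signal. The median absolute difference moved to 0.347 with the percentile over all probes, 0.136 after normexp, 0.338 with total gene signal, 0.219 in the authors' values, 0.358 with no common floor and 0 with no filter, where most probes are at the floor. Adult mammary arrays stayed nearer to reprogrammed lung than adult lung arrays did, without overlap, in all settings that gave this distance except the one with no filter, where all distances were 0. The counts of probes detected in 1 group only were 36 to 55 and 2 to 6 with single arrays left out. Only numbers 1 and 2 are shared by the replicates of both groups, too few to show a pairing. Same-numbered arrays deviated with correlations of -0.45 and 0.04, and the replicate block called 42 probes. Causes of these shifts were not tested.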

Other observations

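More probes differed by over 2-fold than passed the threshold: 110 of 947 did, of which 82 fell short, 55 higher and 27 lower in reprogrammed lung cells. Their spread among reprogrammed lung arrays was a median SD of 0.69 (log2), against 0.24 for the 22 higher and 6 lower probes over 2-fold that passed, while among adult mammary arrays it was 0.37 against 0.32. The largest difference that fell short was -2.19 ± 0.95 (SE, adjusted p = 0.223 in limma), at a probe with an SD of 1.78 among adult mammary arrays and overlapping groups.

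Probes with consecutive serial numbers changed alike. Over 604 such pairs of tested probes the changes correlated at 0.523, a description across probes that share arrays and possibly targets. Where a probe passed the threshold and the next number was tested, the next one passed as well in 4 of 19 cases (21.1%), against 3.64% of all such next probes.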
